A study of Rattus norvegicus with 8 samples.

Results

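The 8 miRNAs described here are widely used as references when miRNA levels in exosomes are compared. They are rno-miR-103-3p, rno-miR-107-3p, rno-miR-191a-5p, rno-miR-423-5p, rno-miR-423-3p, rno-miR-320-3p, rno-miR-484 and rno-miR-186-5p, taken by these rat names from a deposited count table and written without the prefix from here on. They filled 9 of its 1512 rows, and 8 of its 1273 mature names once rows of the same mature name were summed. The series sequenced small RNA of exosomes, vesicles shed by cells, that rat intervertebral disc cells had released. Of the 8 libraries, 4 hold exosomal RNA of nucleus pulposus cells (NPC), which fill the gelatinous core of the disc, and 4 that of nucleus pulposus progenitor cells (NPPC). No treatment or genetic change is named in the labels for either group, and nothing on strain, age or passage is given in the sources used here. The labels do not say whether a group's libraries are separate cultures or animals. The p-values therefore measure the spread between these libraries alone, and that spread may be technical.

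Exosomes hold little of the ribosomal and housekeeping RNA that cell assays are scaled to, so miRNAs thought to be steady across cells and fluids are used in their place. A reference serves its purpose when its level does not move with the condition or with the handling of a sample. Except for the arms of the miR-423 hairpin, the 8 miRNAs come from different hairpins, and in RefSeq's rat assembly GRCr8 most of these lie within protein-coding genes. The miR-103 hairpins lie in Pank2 and Pank3 and that of miR-107 in Pank1, genes for pantothenate kinases, which start the synthesis of coenzyme A. The hairpin of miR-191a lies in Dalrd3, that of miR-423 in Nsrp1, which encodes a splicing factor, and that of miR-186 in Zranb2, which encodes another. The hairpins of miR-320 and miR-484 overlap no protein-coding gene there, and their nearest ones are Polr3d and Marf1. These miRNAs are known for precursors with a capped 5′ end that bypass Drosha, the nuclear enzyme that cuts most miRNA hairpins from their transcripts.

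The sequences are shown because GC content went with the levels of NPC replicate 1, as described below, and because 2 of them are nearly identical. Each is the sequence counted in the deposited table, 5′ to 3′, with the seed (bases 2 to 8) in capitals.
rno-miR-103-3p: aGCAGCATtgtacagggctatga
rno-miR-107-3p: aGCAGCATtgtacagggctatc
rno-miR-191a-5p: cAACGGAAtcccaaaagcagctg
rno-miR-423-5p: tGAGGGGCagagagcgagacttt
rno-miR-423-3p: aGCTCGGTctgaggcccctcagt
rno-miR-320-3p: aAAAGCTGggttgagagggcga
rno-miR-484: tCAGGCTCagtcccctcccgat
rno-miR-186-5p: cAAAGAATtctccttttgggct
RefSeq (GRCr8) held 6 of the 8 mature sequences, and all 6 equalled the mature sequence that the table assigns. There were 7 seeds, since miR-103-3p and miR-107-3p share theirs. Their 23-base mature forms differ by 1 substitution, G22C, with positions counted from 1 at the 5′ end of miR-103-3p. The counted form of miR-107-3p ends at that base, at a length of 22, so a read trimmed by a few bases fits both miRNAs. The division of reads between this pair is therefore uncertain. GC content ran from 40.9% in miR-186-5p and 47.8% in miR-103-3p to 63.6% in miR-484 and 65.2% in miR-423-3p, with miR-107-3p at 50.0%, miR-191a-5p at 52.2%, miR-320-3p at 54.5% and miR-423-5p at 56.5%.

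The table places the hairpins on chromosomes 3 (123833655 to 123833768) and 10 (20606715 to 20606800) for miR-103-3p, both on the plus strand. It places those of miR-107 on chromosome 1 (253128250 to 253128336, minus strand), miR-191a on chromosome 8 (117354359 to 117354470, plus strand) and miR-423 on chromosome 10 (63098317 to 63098487, plus strand). That of miR-320 lies on chromosome 15 (52134255 to 52134357, plus strand), that of miR-484 on chromosome 10 (27845 to 27921, minus strand) and that of miR-186 on chromosome 2 (263873759 to 263873844, plus strand). No source used here names the genome build of these positions. Both arms of the miR-423 hairpin are among the 8.

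Libraries held 329011 to 681591 counts in NPC and 819845 to 1416940 in NPPC. The 8 miRNAs together took 6.42% of the counts of NPC replicate 1, 2.47% to 3.00% in the other NPC libraries and 2.37% to 3.23% in the NPPC libraries. NPC replicate 1 stood apart from the rest of the series: its factor from the trimmed mean of M-values (TMM), which corrects a library's total for the make-up of its counts, was 1.64, and the other 7 lay between 0.872 and 1.01. All 9 listed markers of nucleus pulposus, cartilage and mesenchyme were in the table, with summed levels of 158142 to 226171 CPM (counts scaled to a common library total, here with TMM) in NPC and 184890 to 199477 CPM in NPPC libraries. Without NPC replicate 1, the lowest, the NPC sums were 210717 to 226171 CPM and lay above all NPPC sums. The sums were not tested, and 22% of single names did not overlap between the groups without that library. They rest mostly on miR-199a-3p, miR-199a-5p and miR-143-3p, with means of 69207, 65925 and 48362 CPM. The markers did not move as a set, since with all 8 libraries 4 of the 9 had a positive log2 fold change of NPPC over NPC. Levels below are in CPM scaled in the same way.

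None of the 8 reference miRNAs passed the test between NPPC and NPC exosomes. In edgeR's quasi-likelihood test (two-sided, 390 mature names, Benjamini-Hochberg adjustment) 0 of 8 had an adjusted p under 0.05 and 0 of 8 an unadjusted p under 0.05, and these 2 counts were also 0 with the DESeq2 Wald test and with limma-voom. Of all names tested, 0.256% were called, which is miR-146a-5p alone (log2 fold change 3.38, adjusted p = 0.0318), and 10.5% had an unadjusted p under 0.05. The call of miR-146a-5p was lost when any 1 library other than NPC replicate 1 was left out (adjusted p = 0.0651 to 0.200), and also with the replicate number as a block (edgeR, adjusted p = 0.0531). In 0 of the 8 did the 4 NPPC levels lie all above or all below the 4 NPC levels, against 10.8% of the names tested (6.15% higher and 4.62% lower in NPPC). The median log2 fold change of the 8 was -0.13, beside -0.038 over all 390 and 0.19 over the rat names among these. Of the 8, 3 were positive. The intervals given below are wide enough that sizeable differences were not detectable with 4 libraries a group.

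**Figure D1:**
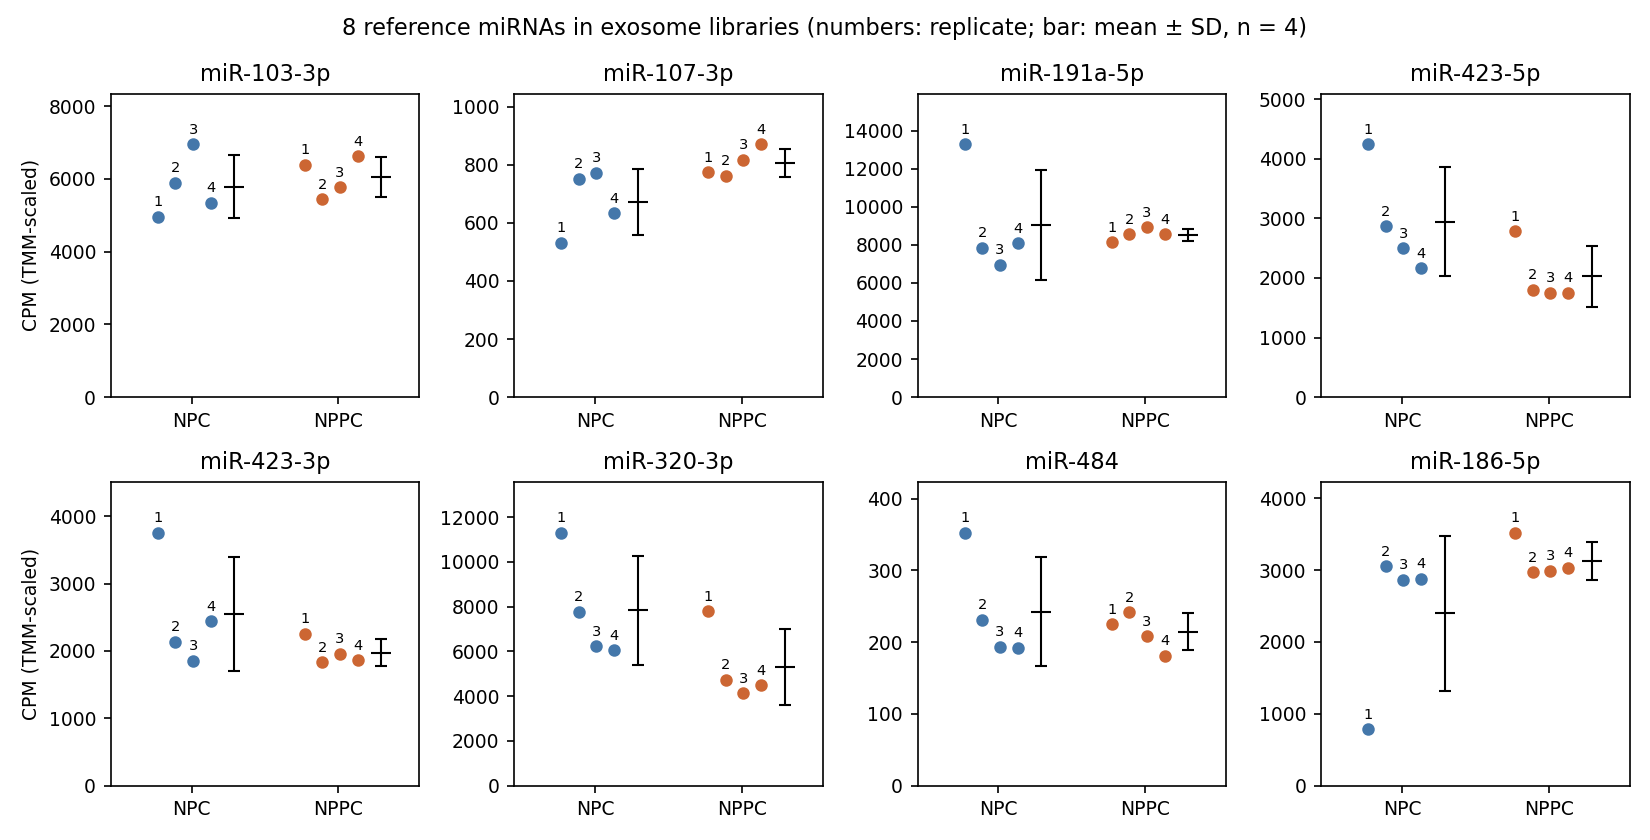
Level of each reference miRNA (CPM, TMM-scaled, linear axis from 0) in the 4 NPC and 4 NPPC libraries. Points are libraries numbered by replicate, and bars are the mean ± SD (n = 4). NPC replicate 1 is the highest library for miR-191a-5p, miR-423-5p, miR-423-3p, miR-320-3p and miR-484 and the lowest for miR-103-3p, miR-107-3p and miR-186-5p.

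miR-103-3p and miR-107-3p, paralogs known to repress the miRNA-processing enzyme Dicer, had the lowest SDs of the 8 in TMM-scaled log2 CPM over all libraries, given below. Scaled to the 8 themselves miR-107-3p (0.31) was less steady than miR-484 (0.24), miR-191a-5p (0.25) and miR-423-3p (0.28), and in the ratios described further on the pair ranked 4 and 7 of 8. Both measures set a member against the other members, so members that move together come out steadier. miR-103-3p stood at 4963, 5893, 6957 and 5351 CPM in NPC replicates 1 to 4 and at 6385, 5436, 5767 and 6624 CPM in NPPC replicates 1 to 4. The groups overlapped broadly, averaging 5791 ± 866 CPM (SD, n = 4) for NPC against 6053 ± 547 CPM (SD, n = 4) for NPPC. The log2 fold change of NPPC over NPC was 0.064, with a 95% interval from -0.28 to 0.41 (edgeR, adjusted p = 0.857), and it was -0.16 when libraries were scaled by total count. miR-107-3p stood at 531, 751, 773 and 633 CPM in NPC and at 774, 761, 817 and 871 CPM in NPPC. Only NPC replicate 3 reached into the NPPC range, and the means were 672 ± 112 CPM (SD, n = 4) and 806 ± 49.4 CPM (SD, n = 4). This is a log2 fold change of 0.26, with an interval from -0.14 to 0.66 (edgeR, adjusted p = 0.564).

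The ratio of these paralogs needs no scaling between libraries. There were 9.33, 7.84, 8.99 and 8.46 counts of miR-103-3p for each of miR-107-3p in NPC, and 8.25, 7.14, 7.06 and 7.60 in NPPC. The ranges overlapped, and the log2 ratio was 0.20 lower in NPPC by group means (3.11 ± 0.11 in NPC and 2.91 ± 0.10 in NPPC, SD, n = 4), which gave p = 0.0571 by exact permutation (two-sided) and an adjusted p of 0.240 over the 28 pairs of the 8. The uncertain division of reads bears on this ratio directly.

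miR-191a-5p, often the first choice as a reference in tissue and serum, had the highest mean CPM of the 8. Its NPC libraries held 13287, 7853, 6952 and 8081 CPM and its NPPC libraries 8143, 8544, 8917 and 8551 CPM. NPC replicate 1 lay above every other library, and the other 3 NPC libraries lay below all 4 NPPC libraries. The means were 9043 ± 2871 CPM (SD, n = 4) and 8539 ± 316 CPM (SD, n = 4), and the log2 fold change was -0.083 with an interval from -0.57 to 0.40 (edgeR, adjusted p = 0.864). Without NPC replicate 1 the sign turned, to 0.17 with an interval from -0.023 to 0.37 (adjusted p = 0.297). The groups then did not overlap, as in 22% of names tested without that library, and the log2 fold change was 0.14 to 0.33 under the other 5 scalings tried there. Among the NPPC libraries alone miR-191a-5p varied least of the 8, with a coefficient of variation of 3.70%.

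miR-425-5p and miR-425-3p come from a hairpin that lies beside that of miR-191a in the table and in RefSeq. Levels of miR-425-5p averaged 169 ± 34.6 CPM (SD, n = 4) for NPC against 221 ± 16.1 CPM (SD, n = 4) for NPPC, and its log2 fold change was 0.39 (edgeR, adjusted p = 0.504). There were 64.5, 41.7, 53.6 and 53.2 counts of miR-191a-5p for each of miR-425-5p in NPC replicates 1 to 4 and 41.2, 36.7, 39.6 and 37.2 in NPPC replicates 1 to 4. The ranges did not overlap, but NPC replicate 2 and NPPC replicate 1 almost met, and this ratio was not tested. Of 9 listed other arms and neighbours 4 were in the table and 2 abundant enough to be tested, and 0 passed in either direction. The other arm miR-191a-3p had at most 17 counts in any library, and miR-103-2-5p had 5 counts in NPC replicate 3 and none elsewhere.

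miR-320-3p, whose precursor bypasses Drosha, had the most negative log2 fold change of the 8, and it did not pass the test. Its NPC libraries held 11309.5, 7774, 6228 and 6058 CPM and its NPPC libraries 7808, 4726, 4123 and 4487 CPM. In NPPC, replicate 1 was far above the rest and lay within the NPC range, and the other 3 lay below all 4 NPC libraries. The means were 7843 ± 2437 CPM (SD, n = 4) and 5286 ± 1699 CPM (SD, n = 4). Its log2 fold change was -0.57 with an interval from -1.21 to 0.070 (edgeR, unadjusted p = 0.0745, adjusted p = 0.458). It was -0.33 without NPC replicate 1 (adjusted p = 0.416) and -0.91 with total count scaling.

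miR-423-5p, the arm of its hairpin that is often measured in serum, followed miR-320-3p from library to library. It stood at 4245, 2867, 2503 and 2161 CPM in NPC and at 2788, 1803, 1755 and 1754 CPM in NPPC. NPPC replicate 1 again lay within the NPC range and the other 3 below it, with means of 2944 ± 914 CPM (SD, n = 4) and 2025 ± 509 CPM (SD, n = 4). Its log2 fold change was -0.54 with an interval from -1.14 to 0.055 (edgeR, adjusted p = 0.458), and -0.30 without NPC replicate 1. With NPPC replicate 1 left out, miR-320-3p and miR-423-5p did not overlap between the groups. miR-107-3p and miR-186-5p did not overlap then either, which makes 4 of 8 beside 22.2% of the names tested. None of the 4 passed, with 2 of 8 at an unadjusted p under 0.05 by edgeR, beside 39 of 410 names.

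Per library there were 0.375, 0.369, 0.402 and 0.357 counts of miR-423-5p for each of miR-320-3p in NPC, and 0.357, 0.382, 0.426 and 0.391 in NPPC. The SD of this log2 ratio over the 8 libraries, 0.087, was the lowest of the 28 pairs. Between the groups it differed by 0.048 on the log2 scale, and this did not pass the test (exact permutation, two-sided, p = 0.457). These miRNAs share neither hairpin nor seed.

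The other arm of the miR-423 hairpin, miR-423-3p, did not keep step with miR-423-5p as closely. It stood at 3756, 2134, 1853 and 2442 CPM in NPC and at 2256, 1829.55, 1958 and 1860.02 CPM in NPPC. The groups overlapped, with means of 2546 ± 842 CPM (SD, n = 4) and 1976 ± 195 CPM (SD, n = 4) and a log2 fold change of -0.37, with an interval from -0.90 to 0.17 (edgeR, adjusted p = 0.564). Without NPC replicate 1 it was -0.11. There were 1.13, 1.34, 1.35 and 0.885 counts of the 5p arm for each of the 3p arm in NPC and 1.24, 0.985, 0.896 and 0.943 in NPPC. NPC replicates 1 to 3 and NPPC replicate 1 lay above 1 and the other 4 libraries below it. The log2 arm ratio was 0.20 lower in NPPC (0.21 ± 0.29 in NPC and 0.010 ± 0.20 in NPPC, SD, n = 4), and exact permutation gave p = 0.314 (two-sided).

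miR-484 was the least abundant member, and counting error was largest there. It held 353, 231, 194 and 192 CPM in NPC and 225, 242, 209 and 181 CPM in NPPC. NPC replicate 1 was the highest library, and the other 7 were interleaved. The 100 counts of NPC replicate 4 give an exact Poisson 95% interval of 156 to 234 CPM, which covers counting error only and takes in 5 of the other 7 libraries. The log2 fold change was -0.18 with an interval from -0.76 to 0.41 (edgeR, adjusted p = 0.740), and 0.069 without NPC replicate 1.

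miR-186-5p showed the largest departure of a single library. NPC replicate 1 held 785 CPM, and the other NPC libraries held 3057, 2868 and 2882 CPM. The NPPC libraries held 3522, 2969.7, 2990.2 and 3035 CPM, so that 7 libraries lay close together and 1 lay 3.74-fold below the mean of the other 3 of its group. The log2 fold change was 0.38 with an interval from -0.48 to 1.25 (edgeR, adjusted p = 0.652). It was 0.10 without NPC replicate 1, with an interval from -0.12 to 0.33. The means with that library were 2398 ± 1079 CPM (SD, n = 4) for NPC against 3129 ± 263 CPM (SD, n = 4) for NPPC.

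**Figure D2:**
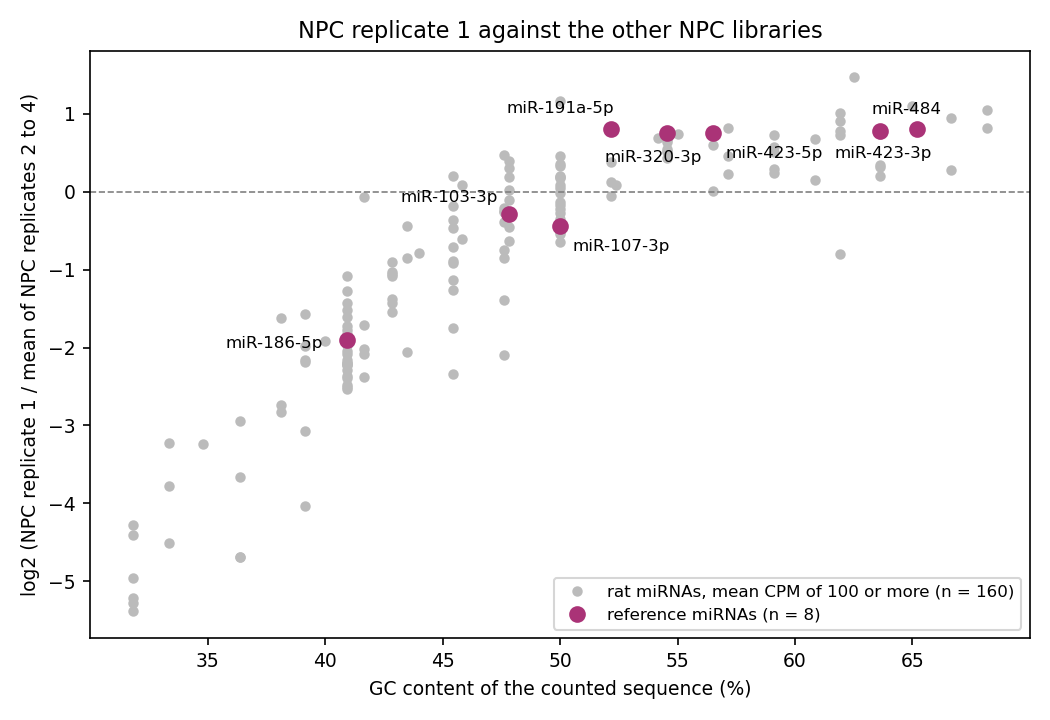
GC content of the counted sequence (%, horizontal) against the log2 ratio of the level in NPC replicate 1 to the mean of NPC replicates 2 to 4 (vertical). Grey points are the 160 rat miRNAs with a mean of at least 100 CPM and a count in NPC replicate 1, and coloured points are the 8 reference miRNAs, of which the 5 with the highest GC content lie above 0 and the 3 with the lowest below it.

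In NPC replicate 1 the departure from the other NPC libraries went with GC content. The log2 ratio of its level to the mean of the other 3 was -1.90 for miR-186-5p, -0.29 for miR-103-3p and -0.44 for miR-107-3p, the 3 members with the lowest GC content. It was 0.80 for miR-191a-5p, 0.76 for miR-320-3p, 0.76 for miR-423-5p, 0.78 for miR-484 and 0.81 for miR-423-3p. Over the 8 miRNAs, which share 1 set of libraries, Pearson's r of this ratio with GC content was 0.83 and Spearman's rho 0.81. Over the 160 rat miRNAs with at least 100 CPM these were 0.86 and 0.92. These correlations were computed for NPC replicate 1 only, so they do not show whether other libraries depart with GC content. With each library corrected along a smooth curve on GC content, the log2 fold changes turned for miR-186-5p (-0.21), miR-191a-5p (0.023), miR-423-3p (0.15) and miR-484 (0.26), and 0 of 8 passed. The median SD of the 8 was 0.50 after that correction and 0.32 before it. That of all names of at least 100 CPM was 0.42 over 203 names after it and 0.52 over 209 before it. The corrected log2 values also used a smaller added count, and its part in these changes was not tested. miR-423-5p, with at least 1124 counts in every library, had an SD of 0.45 before the correction and 0.70 after it. That of miR-186-5p went the other way, from 0.70 to 0.25.

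Steadiness over all 8 libraries was measured by the SD of log2 CPM, as a description with no test. Among the 209 names with a mean of at least 100 CPM, where rank 1 is the lowest SD, miR-103-3p ranked 15 (SD 0.17), miR-107-3p 32 (0.23), miR-191a-5p 48 (0.27) and miR-484 55 (0.30). miR-423-3p ranked 67 (0.35), miR-423-5p 88 (0.45), miR-320-3p 103 (0.49) and miR-186-5p 132 (0.70). The median SD of the 8 was 0.32, beside 0.52 over the 209, which include names of other species. With rat names only, scaled among themselves, the gap was smaller, at 0.40 beside 0.45 over 169 names. The lowest SDs of all belonged to miR-181b-5p (0.067), miR-199a-5p (0.096), miR-30d-5p (0.11), mmu-miR-574-3p (0.11) and miR-382-5p (0.13), none of them among the 8.

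The order was another without NPC replicate 1. The median SD was then 0.15 for the 8 and 0.26 over 204 names, and miR-186-5p moved from the least steady member to the steadiest, at rank 8 (SD 0.10). miR-191a-5p then ranked 17 (0.12), miR-103-3p 31 (0.15), miR-107-3p 32 (0.15), miR-423-3p 36 (0.16) and miR-484 37 (0.16). miR-423-5p (0.31, rank 123) and miR-320-3p (0.37, rank 142) ranked in the less steady part of the table, with NPPC replicate 1 standing apart from the other NPPC libraries in both.

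**Figure D3:**
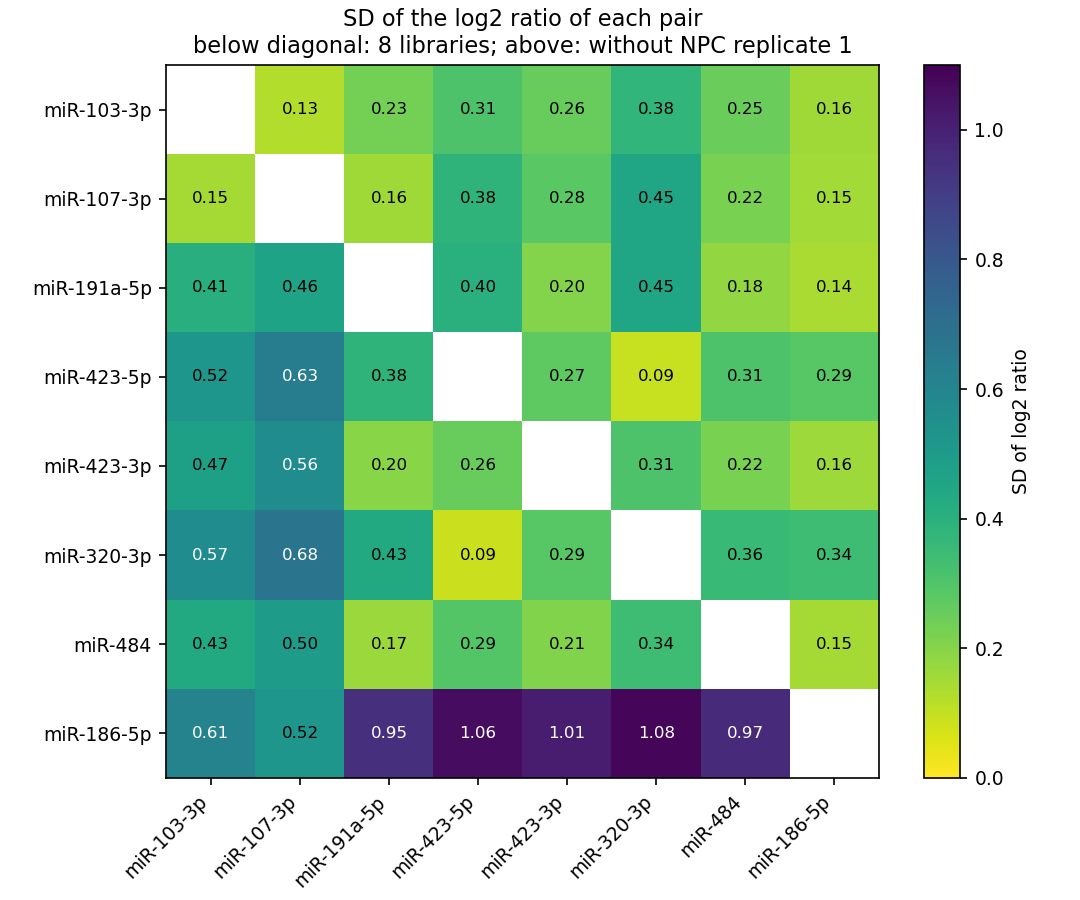
SD of the log2 ratio of counts for each of the 28 pairs of reference miRNAs, below the diagonal over all 8 libraries and above it over the 7 libraries without NPC replicate 1 (colour and printed value, log2 units). The 5 highest values below the diagonal, 0.95 to 1.08, are all in the row of miR-186-5p, which runs from 0.52, and its column above the diagonal runs from 0.14 to 0.34.

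Ratios between the members involve no scaling, and miR-186-5p stood apart in them too. The 7 pairs that hold miR-186-5p had SDs of the log2 ratio between 0.52 and 1.08 over the 8 libraries, and 0.14 to 0.34 without NPC replicate 1. The other 21 pairs ran from 0.087 to 0.68, and from 0.094 to 0.45 without that library. Averaged over its 7 pairs, miR-484 had the lowest SD (0.42) and miR-186-5p the highest (0.89), while without NPC replicate 1 the lowest was that of miR-186-5p (0.20) and the highest that of miR-320-3p (0.34). Between the groups, 0 of the 28 pairs passed the test. After adjustment over 28 pairs a ratio can pass only if many pairs reach the lowest possible p together. This count therefore cannot tell whether a single ratio differs. The lowest two-sided exact permutation p was 0.0571, where 70 arrangements allow 0.0286, and the lowest adjusted p over the 28 pairs was 0.240, with 0 pairs at an unadjusted p under 0.05 and 0 pairs without overlap. With NPPC replicate 1 left out 12 pairs did not overlap and 6 had an unadjusted exact permutation p of 0.0286, and the lowest adjusted p was 0.133.

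**Figure D4:**
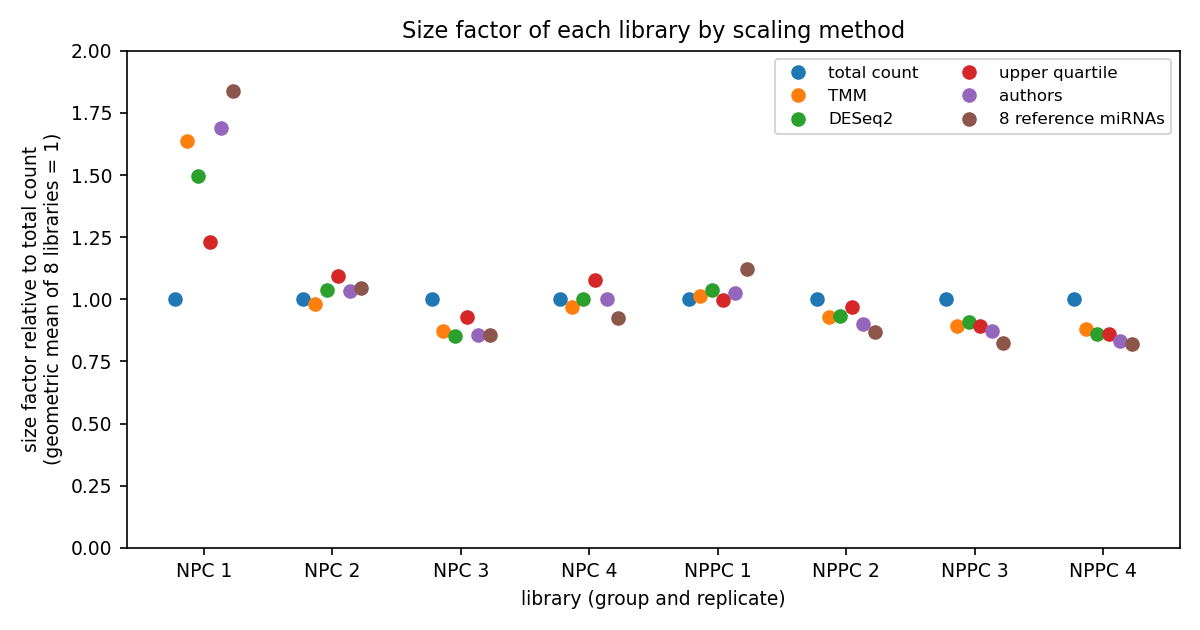
Size factor of each library (NPC and NPPC, replicates 1 to 4) under 6 scalings, divided by that from total counts, on a linear axis from 0. Each point is 1 library and 1 scaling. For NPC replicate 1 the points run from 1 for total counts to 1.84 for the 8 reference miRNAs, and in the other libraries they lie between 0.820 and 1.12.

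The choice of scaling bore on the members' level in NPC replicate 1 above all. Relative to its total count the size factor of NPC replicate 1 was 1.23 by the upper quartile, 1.50 by DESeq2, 1.64 by TMM, 1.69 by the authors' factors and 1.84 by the geometric mean of the 8 reference miRNAs. With total count scaling the median log2 fold change was -0.49 for the 8 and -0.29 for all 390 names, a shift of -0.25 for the latter. For the rat names among the 390 it was -0.023. The median SD of the 8 was then 0.57, above the 0.56 of the 209 names, and with upper-quartile factors 0.48 beside 0.53. It was 0.30 with the authors' factors, beside 0.51. TMM factors computed without the 8 gave them a median SD of 0.34.

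**Figure D5:**
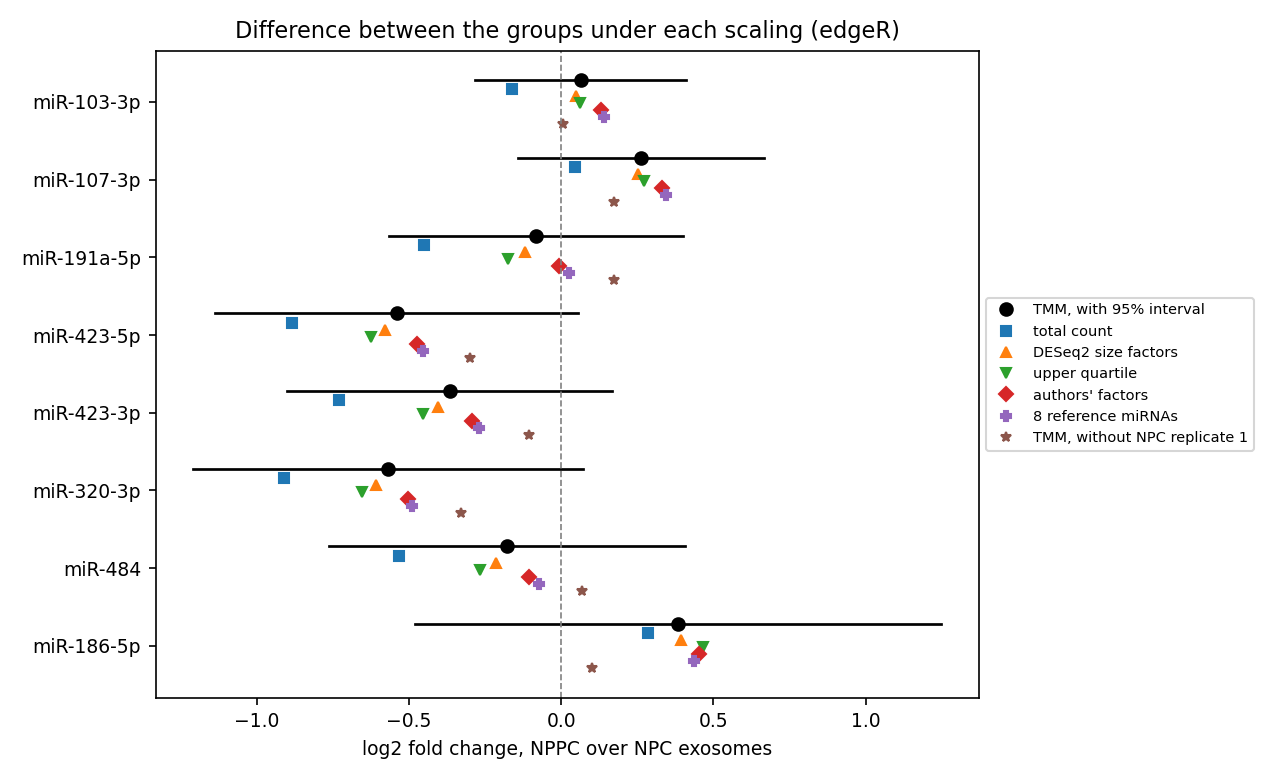
Log2 fold change of NPPC over NPC for each reference miRNA (horizontal) by edgeR. Black points with bars are the TMM-scaled estimates with 95% intervals, all of which include 0, and coloured markers are the same fit under 5 other scalings and, with TMM, without NPC replicate 1. miR-320-3p, miR-423-5p and miR-423-3p lie below 0 and miR-107-3p and miR-186-5p above 0 under each of these. miR-103-3p, miR-191a-5p and miR-484 change sign.

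miR-320-3p and miR-423-5p had a negative log2 fold change, and miR-107-3p a positive one, under all 29 alternative settings. Their ranges were -0.91 to -0.16, -0.88 to -0.14 and 0.047 to 0.40. None of the 8 passed in any of the 29. With the replicate number as a block, 2 of 8 had an unadjusted p under 0.05 by edgeR, beside 48 of 390 names. By that fit miR-320-3p was at -0.57 (interval -0.92 to -0.22, edgeR, adjusted p = 0.274) and miR-423-5p at -0.52 (interval -0.92 to -0.13, adjusted p = 0.304). Scaled to the 8 reference miRNAs themselves, as in an assay normalized to them, 0 of 390 names were called and 40 had an unadjusted p under 0.05. The log2 fold change of miR-146a-5p was 3.45 there, with an adjusted p of 0.0573. With that scaling and without NPC replicate 1, a setting chosen after seeing the data, it was 3.13 (edgeR, adjusted p = 0.00214).

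Of 16 other miRNAs in use as references, all were tested and 0 passed in either direction. They had a median log2 fold change of 0.36, with 9 of 16 positive. The 4 with the highest mean CPM were miR-152-3p (log2 fold change -0.16, adjusted p = 0.596), miR-26a-5p (0.45, adjusted p = 0.654), miR-99a-5p (-0.16, adjusted p = 0.611) and let-7a-5p (0.63, adjusted p = 0.596). In 1 of the 16, miR-16-5p, the groups did not overlap, beside the 10.8% of all names. miR-16-5p, which was named after its values had been seen, averaged 717 ± 101 CPM (SD, n = 4) for NPC against 1233 ± 179 CPM (SD, n = 4) for NPPC (log2 fold change 0.78, edgeR, adjusted p = 0.246), and the DESeq2 Wald test did call it. Over the 8 libraries the SDs of miR-152-3p and miR-99a-5p were 0.16 and 0.17, near that of miR-103-3p, and those of miR-26a-5p and let-7a-5p were 0.91 and 0.99. NPC replicate 1 held 3267 CPM of miR-26a-5p and 2505 CPM of let-7a-5p, where the other NPC libraries held 17253 to 19022 CPM and 13082 to 16570 CPM.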

How the data were processed

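Per the labels' protocols, exosomal RNA went into TruSeq small RNA libraries. The submitters' processing notes name CASAVA 1.8. Not given in the sources used here are the aligner, the miRBase release and the genome build. Deposited values were estimated counts per row, of which 82.3% of the values above 0 were whole within 1e-09, and the authors' scaled signal, equal to the count times 1 factor per library.

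Counts were summed per mature name, since the reads of miR-103-3p are divided over 2 rows, and rounded. The test was edgeR 4.0.16 in R 4.3.3 with TMM, filterByExpr, the quasi-likelihood fit on group and Benjamini-Hochberg adjustment. Log2 CPM used a prior count of 2, and intervals are from the fit's t distribution. Pair ratios used a pseudocount of 0.5 counts and exact permutation. limma 3.58.1, DESeq2 1.42.0, Python 3.11.15, numpy 2.4.6, pandas 2.3.3, scipy 1.17.1 and matplotlib 3.10.9 were also used. The main edgeR fit was tried on simulated counts with known changes, and the permutation test on constructed values with known answers. The GC correction was a loess curve (span 0.75) of each library's deviation, and its log2 values used 0.5 added counts in place of the prior count of 2.

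Replicate numbers are shared by the groups. Deviations from the group means correlated at 0.56, 0.12, 0.37 and 0.24 between libraries with the numbers 1 to 4. Each was above 0.1, the rule used here for a possible pairing of the libraries. The main tests and intervals used group alone and leave such a pairing out. The replicate number entered only as a block among the alternative settings. The 12 correlations between different numbers ran from -0.48 to 0.35, and 4 of 8 libraries correlated best with their own number. A pairing would rest on these values, not on the labels.

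The members, lists and tests were chosen with earlier results of these data known. Besides the 8 members, the text names the other arms and neighbours detected, up to 4 other reference miRNAs by mean CPM and any that passed, the 5 names with the lowest SD at 100 CPM or more, and the 5 nearest in profile to the mean of the members.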

Additional observations from a re-analysis of the deposited data

Results flagged for a closer look

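Of 16 groups of 4 libraries examined for the 8 reference miRNAs, 4 had their highest or lowest library well outside the range of the rest. Chance alone does this in about 1 in 20 independent groups. The 16 share the same 8 libraries and 3 of the 4 lie in NPPC replicate 1, so that rate is no measure of the count. In NPPC replicate 1 miR-423-5p stood at 2788 CPM (others 1754 to 1803), miR-320-3p at 7808 CPM (others 4123 to 4726) and miR-186-5p at 3522 CPM (others 2969.7 to 3035). In NPC replicate 1 miR-186-5p stood at 785 CPM (others 2868 to 3057).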

How the results depend on the processing

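Over 29 alternative settings 0 of the 8 reference miRNAs passed, and of 232 values of their log2 fold changes 28 turned sign. With total count scaling miR-103-3p turned to -0.16, and among rat names only to -0.038. With the GC correction miR-186-5p turned to -0.21, miR-191a-5p to 0.023, miR-423-3p to 0.15 and miR-484 to 0.26, and with that correction and the replicate block to -0.21, 0.13, 0.16 and 0.30. miR-191a-5p was 0.025 when scaled to the 8 and 0.033 with no filter. With a library left out it ran from -0.14 to 0.17, and miR-484 from -0.25 to 0.069. Scalings without NPC replicate 1, chosen after seeing the data, gave miR-103-3p -0.0027 and miR-191a-5p 0.16 with DESeq2 size factors, and -0.013 and 0.14 with total counts. They gave miR-191a-5p 0.23, 0.21 and 0.33 with the authors' factors, the 8 miRNAs and the upper quartile, and miR-423-3p 0.055 with the last. miR-484 was 0.060 (DESeq2), 0.13 (authors), 0.11 (the 8), 0.042 (total) and 0.22 (upper quartile). The median SD of the 8 was 0.57 with total counts and 0.48 with the upper quartile. Without NPC replicate 1 it was 0.147 (DESeq2), 0.159 (authors), 0.169 (the 8), 0.189 (total) and 0.202 (upper quartile), and with a library left out it ran from 0.15 to 0.34. Members without overlap numbered 1 with DESeq2 size factors, 1 with the authors' factors, 1 when scaled to the 8, 1 with rows as deposited, 2 with the upper quartile and 0 to 4 with a library left out. Names without overlap, higher and lower in NPPC, were 26 and 24, 31 and 14, and 23 and 19 of 390 under the first 3 of these. They were 38 and 29 of 464 with rows as deposited and 37 and 11 of 390 with the upper quartile. They were 63 and 28 of 410 without NPPC replicate 1, which gave the 4 members, and 68 and 42 of 429 without NPC replicate 3, which gave 2. The names called numbered 6 with the DESeq2 Wald test, 8 without a filter, 0 when scaled to the 8, 0 with rows as deposited, 0 with the replicate block (48 at an unadjusted p under 0.05) and 0 to 1 with a library left out, 0 wherever it was not NPC replicate 1. Names at an unadjusted p under 0.05 split 16 higher and 25 lower in NPPC, 10 and 33 with total counts, 18 and 27 with DESeq2 size factors, 21 and 17 with the upper quartile, 23 and 20 with the authors' factors and 21 and 19 when scaled to the 8. The block changed no call among the 8, and 0 pairs passed under each pair alternative. With the block none could pass, since 4 within-number differences allow an exact permutation p of 0.125 at the lowest. In the other pair alternatives a pair can pass only if many reach the lowest possible p together. The cause of these changes was not tested. Depth limits miR-484 most.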

Other observations

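Among the names with a mean of at least 100 CPM, the 5 whose log2 CPM followed the mean of the 8 reference miRNAs most closely were miR-134-5p, miR-99b-5p, mmu-miR-744-5p, miR-99b-3p and miR-339-5p. Pearson's r over the 8 libraries was 0.94 for miR-134-5p, from the imprinted Dlk1-Dio3 cluster, 0.86 for miR-99b-5p, 0.85 for mmu-miR-744-5p, 0.84 for miR-99b-3p and 0.83 for miR-339-5p. Over the 7 libraries without NPC replicate 1 these were 0.91, 0.83, 0.78, 0.79 and 0.74. All 5 had a GC content of 59.1% to 66.7%, and all values share the same libraries and depth.

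Markers of other cell types were few and did not pass. Of the erythrocyte list 3 of 4 were in the table, with a summed level of 348 to 555 CPM in NPC and 182 to 1392 CPM in NPPC libraries (182 to 407 CPM without NPPC replicate 2). Of the leukocyte list 3 of 4 were in the table, at 18.6 to 213 CPM (163 to 213 CPM without NPC replicate 1) and 81.5 to 171 CPM, without miR-223-3p. The endothelial list (2 of 2) summed to 277 to 754 CPM (458 to 754 CPM without NPC replicate 1) and 460.03 to 678 CPM, and the liver and serum list (3 of 3) to 319 to 1045 CPM (319 to 366 CPM without NPC replicate 3) and 342 to 378 CPM. Their part in the levels of the reference miRNAs was not tested.

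Rows with human names of the miR-320 family, 8 in all, held 6 to 56 counts per library, which is 0.125% to 0.919% of the counts of miR-320-3p. They were not added to it.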
